A study of Mus musculus with 3 samples.

Results

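Among the cells of incipient heterotopic ossification masses, one population of mononuclear phagocytes carried transcripts of Mmp12, which encodes the macrophage elastase, together with Itgax, which encodes the integrin CD11c. These cells, called Mmp12 and Itgax cells here, were chosen by detected genes and not by clustering. A cell entered when it had 200 to 6000 genes, at most 5% of its UMIs (unique molecular identifiers, each standing for one captured transcript) from mitochondrial genes and less than 1% from Col1a1, Col1a2, Col3a1, Dcn and Lum. It was a member when it held UMIs of at least 3 genes of a list called C (Mmp12, Ear2, Dcstamp, Itgax, Ear1, Cd209a), more genes of C than of a list A (Ms4a7, Ccl12, Stab1, Ccl8, Pf4, Cbr2) and than of a list B (Hal, Ltc4s, Retnla, Fcna, Ednrb, Ifitm6), and no UMI of the proliferation gene Mki67. By this rule 1498 of 21503 cells that passed the gene and mitochondrial limits were members, out of 23219 barcodes. The lists came from these same cells, so the levels of their genes, and of every gene that separates members from other macrophages, are given as a description.

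Macrophage elastase cleaves elastin and other matrix proteins, and CD11c is an integrin of dendritic cells and of many tissue macrophages that have left the blood as monocytes. Dcstamp encodes a transmembrane protein needed for the fusion of osteoclast and giant cell precursors, Cd209a a C-type lectin widely used to mark monocyte-derived dendritic cells in mice, and Ear1 and Ear2 eosinophil-associated ribonucleases. Such cells present peptides on MHC class II, and signals that favour alternative activation, of which IL-4 acting through STAT6 is the best known, raise the chemokines CCL17, CCL22 and CCL24.

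The 3 libraries came from female CD-1 mice, an outbred stock, of 6 to 8 weeks, whose subcutaneous Matrigel implants were collected on day 5. Vehicle mice carried Matrigel mixed with recombinant human BMP2 and received corn oil with DMSO by mouth. Palo mice carried the same mixture and received palovarotene, an agonist of the nuclear retinoic acid receptor RARgamma, by mouth at 4 mg/kg each day for 5 days. Matrigel-only mice carried Matrigel without BMP2 and received nothing, so Vehicle differed from Matrigel-only in both the BMP2 and the gavage. Each group had 1 library of cells freed with dispase, which held 44252421 UMIs in 9249 barcodes for Matrigel-only, 46317250 in 6065 for Vehicle and 46901673 in 7905 for Palo. With 1 library per group no difference between groups could be tested. The intervals given are 95% intervals for counting error, and the treatment, the mice and the handling of a library cannot be told apart.

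The name of the population was checked against its markers. Members carried high levels of MHC class II transcripts. Cd74, the invariant chain, stood at 22582 CPM (UMIs of the gene per 1000000 UMIs of the members) in Matrigel-only, 23593 CPM in Vehicle and 24803 CPM in Palo. Ccr2, the receptor that draws monocytes out of the blood, was at 1253, 1096 and 1414 CPM in the same order, and Csf1r, the M-CSF receptor of the monocyte and macrophage lineage, at 524, 582 and 562 CPM. Of the markers of circulating inflammatory monocytes, Ly6c2 was at 0, 1.10 and 0 CPM and Chil3 at 0, 3.31 and 0.397 CPM. The 14 genes of the monocyte list, which also holds Ccr2, nevertheless summed to 7784, 4733 and 7563 CPM, most of it from Fn1, fibronectin, at 5962, 2961 and 5628 CPM. Of those measured, 6 of 11, 5 of 13 and 4 of 11 were at least 2-fold higher and 3, 4 and 3 lower in members than in the A-type macrophages described below. Of the genes used to define conventional dendritic cells, Flt3 was at 1.24, 6.61 and 0.994 CPM and Zbtb46 at 3.72, 5.51 and 3.58 CPM, whereas Batf3, a transcription factor of dendritic cells, reached 230, 212 and 187 CPM. The 16 genes of the dendritic identity list summed to 1186, 1826 and 1284 CPM, most of it from Naaa, a lysosomal amidase, at 686, 1229 and 849 CPM. Of those measured, 5 of 8, 8 of 12 and 5 of 8 were at least 2-fold higher in members than in A-type cells, and 2 were lower in each library. Of all genes with at least 5 CPM, 573 of 9795, 521 of 9733 and 469 of 9583 were higher than in A-type cells and 979, 814 and 745 lower. Eosinophil markers summed to 1.65, 2.20 and 2.98 CPM, although Ear1 and Ear2 are named after eosinophils. Of the osteoclast genes, Calcr was at 0 in all 3 libraries and Ctsk at 3.72, 2.20 and 1.59 CPM, while the 15 genes of cell fusion and osteoclasts, Dcstamp among them, summed to 3113, 3080 and 3560 CPM, most of it from Tyrobp, an adaptor of many myeloid receptors, at 2292, 1812 and 2694 CPM. Of those measured, 2 of 9, 4 of 13 and 3 of 10 were at least 2-fold higher and 1, 3 and 1 lower than in A-type cells, Dcstamp, which the rule used, being one of the higher genes in each library. These values are those of mononuclear phagocytes rich in MHC class II. Whether the cells had come from monocytes was not measured, and the name monocyte-derived is therefore not used further.

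Members were most frequent in Palo. They made up 5.84% of passing cells in Matrigel-only (510 of 8728, exact binomial interval 5.36 to 6.36), 4.33% in Vehicle (237 of 5478, 3.8 to 4.9) and 10.3% in Palo (751 of 7297, 9.60 to 11). The share in Palo was 5.97 percentage points above that in Vehicle (Newcombe interval 5.08 to 6.84), a ratio of 2.38, and 4.45 points above that in Matrigel-only (3.60 to 5.31). The share in Vehicle was 1.52 points lower than in Matrigel-only (difference of -1.52 points, interval -2.24 to -0.775). The rule counts detected genes and so depends on depth, and the median UMI count of members was 4559, 6612 and 6397 in Matrigel-only, Vehicle and Palo. When cells were first thinned to 2000 UMIs, a depth that some passing cells did not reach, the shares were 4.08%, 2.81% and 5.39%. They stood in the same order as before, with Palo 2.59 points above Vehicle. The rule also leaned on Ear1 and Ear2, which were low in Vehicle. With Ear1 and Ear2 removed from C and at least 2 of its other 4 genes required, the shares became 4.61%, 5.75% and 9.0%. Vehicle then stood 1.14 points above Matrigel-only (0.399 to 1.92), the opposite of the first order, while Palo remained the highest. Stromal cells, those past the collagen limit, took 23.9%, 25.1% and 16.2% of passing cells, and of the cells under that limit 7.68%, 5.77% and 12.3% were members. A share of cells does not give the number of cells in a mass.

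**Figure D1:**
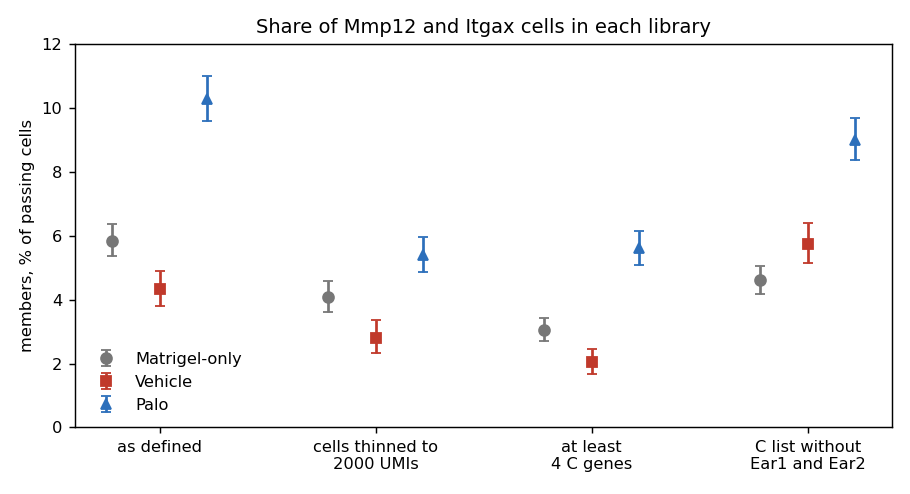
Members as a percent of passing cells in each library (vertical axis), under the rule as defined and under 3 changes of it (horizontal axis). Points are shares and bars 95% exact binomial intervals for counting error. Palo was highest each time, between 5.39% and 10.3%. Vehicle was below Matrigel-only except when Ear1 and Ear2 were left out of the list and at least 2 of its other 4 genes were required.

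Cells near the limits of the rule were common. With 2 genes of C and all other conditions met there were 254, 130 and 214 cells in Matrigel-only, Vehicle and Palo, with median UMI counts of 3571.5, 4422.5 and 4654. With 3 genes of C there were 244, 125 and 342 members, with medians of 4329.5, 6721 and 5995.5, and all 6 genes were found in 3, 4 and 19 members. Cells that met everything but carried Mki67, and were thus left out as cycling, numbered 26, 18 and 60. In Matrigel-only and Vehicle the most frequent combination of C genes was Mmp12, Ear2, Dcstamp and Itgax, in 14.3% and 13.9% of members, whereas in Palo it was these 4 with Ear1, in 13.3%. Called doublets were 8, 7 and 15 of the members (1.57%, 2.95% and 2.00%). The libraries shared 19, 11 and 21 barcodes in the pairs Vehicle with Matrigel-only, Palo with Vehicle and Palo with Matrigel-only, and 1 barcode belonged to a member in both Palo and Matrigel-only.

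The 6 genes of C varied between libraries. Mmp12 (chr9:7344381-7369499, plus strand, build mm10) was at 1147 CPM in Matrigel-only (exact Poisson interval 1105 to 1190), 2928 CPM in Vehicle (2850 to 3008) and 1341 CPM in Palo (1309 to 1373). Itgax (chr7:128129547-128150657, plus) was at 261, 454 and 383 CPM, and Dcstamp (chr15:39745930-39760938, plus) at 262, 312 and 168 CPM. The level of Mmp12 was thus highest in Vehicle, that of Itgax lowest in Matrigel-only and that of Dcstamp lowest in Palo. Cd209a (chr8:3743397-3748984, minus) was at 154, 450 and 165 CPM and was found in 21.6%, 57.0% and 27.8% of members. In the 463, 225 and 728 members with at least 2500 UMIs, each thinned to that depth, the shares with a Cd209a UMI were 17.5%, 43.1% and 18.2%. Shares given below for thinned members, or at 2500 UMIs, are also of these members. Stromal cells, which should lack the gene, had a UMI of it in 0.959%, 1.75% and 1.10% of cells at median depths of 9082, 17114 and 12955 UMIs. Because the rule used Cd209a to choose members, its share in them was raised by the choice and is not compared with that in stromal cells.

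Ear1 and Ear2, the eosinophil-associated ribonucleases of list C, were lowest in Vehicle. Rnase2a, a ribonuclease of the same family, was highest in Vehicle, at 12.4, 60.6 and 10.5 CPM. Of 6 measured pancreatic-type ribonucleases, 2 were at least 2-fold higher in Vehicle than in Matrigel-only (3.08% of all genes). The 2 that were at least 2-fold lower (1.55% of all genes) were Ear1 and Ear2, which the rule used. The median of the 6 genes was 0.59. Ear2 (chr14:44102654-44103534, plus) was at 1171 CPM in Matrigel-only, 472 CPM in Vehicle and 532 CPM in Palo. Ear1 (chr14:43818765-43875517, minus) was at 256, 36.9 and 410 CPM, and its detection in members thinned to 2500 UMIs was 35.7%, 6.40% and 44.2%, beside 0.528%, 0.291% and 1.18% of stromal cells. Ear1 was therefore lowest in Vehicle by both measures. The assignment of reads between Ear1 and Ear2 is uncertain, because 23.8% of the 50-base stretches of the Ear1 transcripts occurred in Ear2. Retnla, a gene of list B that encodes the secreted protein RELMalpha, was abundant in members in spite of the rule, at 6855 CPM in Matrigel-only, 1047 CPM in Vehicle and 5469 CPM in Palo. It was found in 71.6%, 21.3% and 60.4% of thinned members, and stromal cells also held a Retnla UMI in 23.4%, 5.61% and 23.7% of cells, so that part of the detection in members can be background.

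The members were set beside the macrophages picked by exchanging the lists. A-type cells, with most genes from A, numbered 2913, 1543 and 2441, and B-type cells, with most genes from B, 629, 40 and 445. Folr2, the folate receptor beta of resident tissue macrophages, was at 813, 417 and 653 CPM in A-type cells, against 11.6, 9.37 and 12.7 CPM in members. Selenop, a secreted selenium carrier, was at 5093, 2343 and 3878 CPM in A-type cells and 112, 56.7 and 139 CPM in members. Gas6, the ligand of the clearance receptors Axl and Mertk, was at 938, 397 and 575 CPM against 7.84, 7.16 and 3.38 CPM. In each library the A-type cells were higher for these genes by at least 10 times. Maf, a transcription factor of resident macrophages, followed the same order, at 1687, 1667 and 1020 CPM in A-type cells and 44.2, 29.2 and 36.6 CPM in members. Of the 14 macrophage core genes, 11, 9 and 11 were at least 2-fold lower in members than in A-type cells and 0 were higher, with a median log2 ratio of -2.45, -2.33 and -2.14. Of all genes with at least 5 CPM, 979 of 9795, 814 of 9733 and 745 of 9583 were lower in this way. The 12 complement genes had medians of -2.68, -2.46 and -2.28, while the medians over all genes were -0.17, -0.13 and -0.15. C1qa, a chain of the first complement component, was at 4644, 3881 and 5676 CPM in A-type cells and 75.6, 225 and 156 CPM in members.

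Genes higher in members than in A-type cells included nearly all of the measured MHC class II genes. Of the 10 MHC class II genes, 8 of 9 measured in Matrigel-only, 9 of 10 in Vehicle and 9 of 9 in Palo were at least 2-fold higher in members, with medians of 2.05, 2.16 and 1.57 on the log2 scale. Of all genes at that floor 573 of 9795, 521 of 9733 and 469 of 9583 were higher in this way. Lpl, lipoprotein lipase, was at 2208, 2319 and 2099 CPM in members and 102, 83.1 and 176 CPM in A-type cells. F10 and F7 encode coagulation factors X and VII. F10 was at 325, 462 and 304 CPM in members against 15.1, 46.2 and 19.4 CPM, and F7 at 225, 256 and 213 CPM against 11.3, 19.9 and 20.0 CPM. Hr, a transcriptional corepressor best known from hair follicles, was at 160, 99.7 and 133 CPM in members and at 3.63, 2.00 and 2.50 CPM in A-type cells. Among genes with at least 50 CPM, 217 (5.39% of 4024) were higher and 331 (8.23%) lower by at least 2-fold in all 3 libraries. Since the lists that define both classes came from these cells, such counts describe the choice and support nothing.

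The members were also set beside B-type cells. Against them 47 genes (1.14% of 4112) were higher and 155 (3.77%) lower in members by at least 2-fold in all 3 libraries, the Vehicle value resting on 40 cells. With at least 4 genes of its list required for each class, 138 of 4488 were higher and 236 lower. With 5 CPM as the floor, 308 of 9539 genes were higher and 583 lower in Matrigel-only, 1144 and 1538 of 10615 in Vehicle, and 136 and 370 of 9385 in Palo, so that Vehicle had more genes past 2-fold against B-type than against A-type cells and the other libraries fewer. Klrb1b, an inhibitory lectin-like receptor, was at 105, 317 and 110 CPM in members and 4.31, 28.9 and 12.1 CPM in B-type cells, and Axl, a receptor for Gas6, at 144, 145 and 183 CPM against 16.2, 34.7 and 55.1 CPM. Saa3, an acute phase protein of macrophages, was far lower in members, at 12, 5.51 and 12.3 CPM. MHC class II medians over B-type cells were 1.66, 1.26 and 0.83, so the excess of members over B-type cells was smaller than that over A-type cells in each library.

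**Figure D2:**
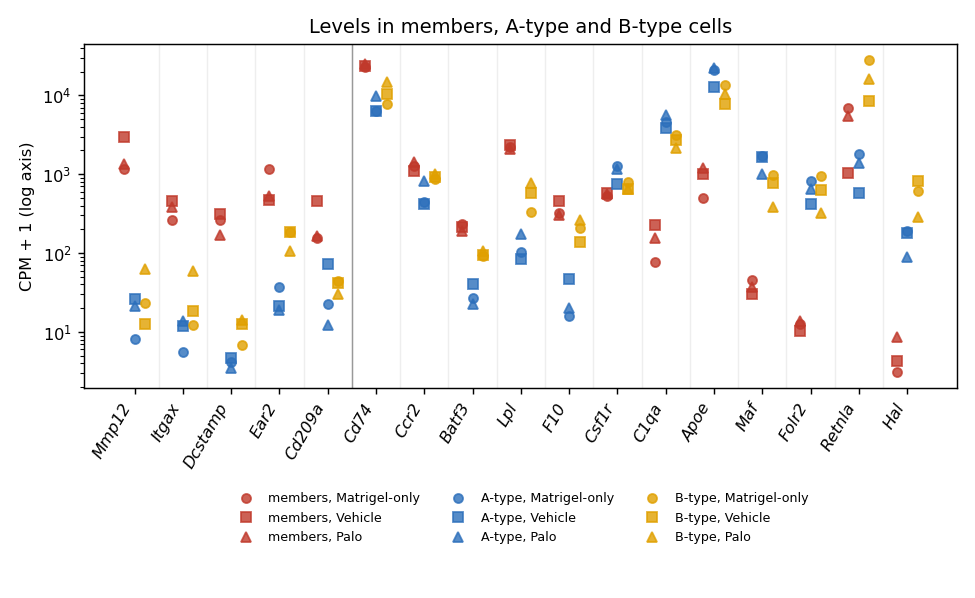
Levels of 17 genes as CPM + 1 on a log axis in members (red), A-type cells (blue) and B-type cells (yellow), with a marker shape for each library. The 5 genes left of the line belong to list C and were used to choose the members. Right of it, Cd74, Batf3 and Lpl were higher in members, and C1qa, Apoe, Maf and Folr2 lower, in each library.

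Members of Vehicle differed from those of Matrigel-only chiefly by genes that were higher. Among genes with at least 50 CPM in either library, 122 (3.82% of 3195) were at least 2-fold higher in Vehicle and 48 (1.5%) at least 2-fold lower, on the scale of log2(CPM + 5). Between Palo and Vehicle, 49 (1.56% of 3143) were higher and 144 (4.58%) lower in Palo. Between Palo and Matrigel-only, 9 (0.306% of 2942) were higher and 11 (0.374%) lower. The median log2 ratio over all genes of at least 5 CPM was 0.02, -0.13 and -0.10 in these comparisons, and -0.01, 0.03 and 0.02 after TMM scaling. With that scaling the counts were 78 higher and 91 lower for Palo over Vehicle, and 17 higher and 6 lower for Palo over Matrigel-only. The balance of higher and lower genes in Palo therefore turned on the scaling. The comparisons share libraries, and a gene out of place in Vehicle alone appears in both comparisons that use it.

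The list of alternative activation genes had the largest median difference of the 36 lists in both comparisons with Vehicle. Of 12 genes, 11 reached 5 CPM in Vehicle or Matrigel-only, of which 7 were at least 2-fold higher and 2 at least 2-fold lower in Vehicle, with a median of 2.39 (1.68 with cells thinned to 2000 UMIs before the rule), where 3.08% and 1.55% of all 9357 genes at that floor were so. Between Palo and Vehicle 1, the rule gene Retnla, was higher and 7 lower with a median of -2.09 (1.18% and 3.54% of 9275 genes). Between Palo and Matrigel-only, 0 of 10 were higher and 1 lower, with a median of -0.05 (0.262% and 0.776% of 9144 genes).

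Ccl17 (chr8:94810453-94812036, plus), a chemokine that attracts CCR4-bearing T cells, was at 3.72 CPM in Matrigel-only, 323 CPM in Vehicle (297 to 350) and 2.38 CPM in Palo. Its UMIs were found in 39 Vehicle members (16.5%, or 12.9% at 2500 UMIs), and 1 cell held 20.0% of them. A-type cells of Vehicle had 2.15 CPM and stromal cells 0.509 CPM. In Vehicle, therefore, the level of Ccl17 in members exceeded that in both of these classes, whereas the 75 neutrophils of Vehicle, with 62598 UMIs in all, had 256 CPM. Ccl22, a second ligand of CCR4, was at 0.413, 88.7 and 2.58 CPM, from 14 Vehicle members of which 1 held 33.5% of the UMIs. Ccl24, a ligand of CCR3, was at 180, 543 and 118 CPM, and Pdcd1lg2, which encodes the inhibitory ligand PD-L2, at 9.50, 105 and 7.75 CPM. Alox15, a lipoxygenase, was at 4.13, 93.1 and 7.15 CPM, and Tgm2, transglutaminase 2, at 7.02, 59.5 and 10.1 CPM. Each of the 4 was highest in Vehicle.

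Mgl2, a galactose-binding C-type lectin of dermal dendritic cells, was at 398 CPM in Matrigel-only, 2111 CPM in Vehicle and 526 CPM in Palo, and was found in 39.3%, 77.1% and 43.6% of members at 2500 UMIs, beside 4.56%, 4.15% and 2.53% of stromal cells. Clec10a, its close relative, went the other way, at 355, 98.1 and 116 CPM. The 2 genes share 12.2% of the 50-base stretches of Mgl2, so their separation is uncertain. Retnla, usually read as a gene of alternative activation, was also lower in Vehicle, with a log2 ratio of -2.70. Mrc1, the mannose receptor, stood at 838, 1239 and 675 CPM and Il4ra, a subunit of the IL-4 receptor, at 120, 173 and 140 CPM, neither of them past 2-fold. The lower genes of the list in Vehicle were thus Clec10a and Retnla, and Retnla was used by the rule.

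To show what lies before genes of this list, the stretches upstream of 3 of them were read from RefSeq (build GRCm38.p6). Each ends at the base before the annotated start, and capitals mark the motif TTC, any 4 bases, then GAA, an arrangement bound by STAT proteins that reads the same on both strands, which was searched for after the values had been seen. The 3 shown are those of the list with a match, so that they carry it by choice, and 4 of the 7 genes of the list with a window had none. Ccl17 and Pdcd1lg2 were higher in Vehicle and Retnla lower. They are Ccl17 (chr8:94810203-94810452, plus), Pdcd1lg2 (chr19:29410669-29410918, plus) and Retnla (chr16:48842359-48842608, plus).
Ccl17: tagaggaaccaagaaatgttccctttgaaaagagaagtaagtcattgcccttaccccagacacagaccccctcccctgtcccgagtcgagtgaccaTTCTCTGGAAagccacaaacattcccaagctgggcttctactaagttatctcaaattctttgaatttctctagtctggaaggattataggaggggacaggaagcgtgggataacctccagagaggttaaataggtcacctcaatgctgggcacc
Pdcd1lg2: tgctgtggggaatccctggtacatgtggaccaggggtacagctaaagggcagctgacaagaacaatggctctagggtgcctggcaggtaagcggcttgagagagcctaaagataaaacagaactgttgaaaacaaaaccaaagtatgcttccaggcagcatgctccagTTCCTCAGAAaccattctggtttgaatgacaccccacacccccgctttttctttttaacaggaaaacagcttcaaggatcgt
Retnla: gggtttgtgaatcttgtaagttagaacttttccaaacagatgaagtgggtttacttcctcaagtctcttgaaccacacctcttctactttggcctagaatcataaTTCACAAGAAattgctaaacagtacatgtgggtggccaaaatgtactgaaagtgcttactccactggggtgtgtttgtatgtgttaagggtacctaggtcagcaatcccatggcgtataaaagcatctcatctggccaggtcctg
The motif began 154, 82 and 145 bases before the start. It occurred in 6.95% of 32851 windows of 300 bases (250 before to 50 after a start), belonging to 8.01% of 27025 genes. Only 7 of the 12 genes of the list had a window, which is too few for a share to be read. Of the 90 genes at least 2-fold higher in Vehicle than in both other libraries 62 had one, also too few to judge the 90. Among these 62 the motif occurred in 6 (9.68%), beside 8.01% of all genes.

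Further genes of quite other functions were highest in Vehicle members as well. Plet1, a surface protein of epithelial progenitors and of some dendritic cells, was at 7.43 CPM in Matrigel-only, 332 CPM in Vehicle and 0 CPM in Palo. With 0 UMIs in Palo, the limit of 3 UMIs stood at 0.596 CPM and the exact Poisson interval reached 0.733 CPM. Plet1 was found in 31 Vehicle members (13.1%). Flt1, a receptor for VEGF, was at 0.413, 113 and 4.17 CPM, from 26.6% of Vehicle members. Spp1, osteopontin, was at 7.84, 202 and 31.4 CPM in members, but stromal cells had 92.7, 428 and 76.9 CPM and neutrophils of Vehicle 1278 CPM. The part of free RNA from these cells was not tested. Mmp14, a membrane-bound collagenase that activates other proteases, was at 3.72, 90.9 and 3.58 CPM in members and at 554, 668 and 588 CPM in stromal cells, and A-type cells had it highest in Vehicle too, at 10.7, 157 and 19.9 CPM. Timp1, an inhibitor of these proteases, was at 12.4, 165 and 16.1 CPM in members and 11.9, 108 and 48.6 CPM in A-type cells. Stromal cells of Vehicle had 1270 CPM of Timp1, and the part of their RNA was not tested. Of the protease and inhibitor list, 4 of 10 measured genes were higher in Vehicle than in Matrigel-only and 0 lower, with a median of 0.69 (3.08% and 1.55% of all genes). Tgfbi, a secreted matrix protein, was at 412, 1072 and 555 CPM, Lgals3, galectin 3, at 897, 2262 and 1237 CPM, and Sdc4, a heparan sulfate proteoglycan, at 70.6, 455 and 45.9 CPM. In A-type cells Sdc4 was at 202, 686 and 154 CPM.

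A few less known genes followed the same order. AA467197, which gives rise to a microRNA and a small mitochondrial protein, was at 1.24, 142 and 0.199 CPM, from 27 Vehicle members of which 1 held 28.7% of the UMIs. H2-M2, a nonclassical MHC class I gene, was at 3.30, 106 and 8.35 CPM. Ocstamp, a partner of Dcstamp in cell fusion, was at 3.72, 100 and 11.3 CPM, and the osteoclast gene Atp6v0d2 took the same order at low levels, 2.06, 12.7 and 8.15 CPM. Acp5, another osteoclast gene, was at 24.8, 13.2 and 43.3 CPM, lowest in Vehicle. Dcstamp itself, as given above, differed by less than 2-fold.

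The Fc receptor gene Fcgr1, often used to tell macrophages from dendritic cells, was at 22.7, 248 and 44.3 CPM and was found in 4.38%, 34.1% and 8.97% of thinned members, beside 4.46%, 4.30% and 4.81% of stromal cells. The stromal shares are of cells at full depth, and in Matrigel-only they were no lower than that of thinned members. Of the macrophage core list as a whole 4 of 14 were higher and 1 lower in Vehicle than in Matrigel-only (median 0.43, beside 3.08% and 1.55% of all genes), and Adgre1, which encodes F4/80, was the lower one, at 202, 92.0 and 202 CPM. Cish, a target and inhibitor of STAT5 signals such as that of GM-CSF, was at 21.1, 91.5 and 4.57 CPM, and Socs2, of the same family, at 35.9, 93.7 and 17.5 CPM. The GM-CSF receptor subunits Csf2ra (654, 399 and 716 CPM) and Csf2rb (289, 410 and 265 CPM) were not past 2-fold. Of the costimulation and maturation list, 4 of 10 were higher in Vehicle than in Matrigel-only (3.08% of all genes) with a median of 0.72, among them Cd40 at 8.26, 39.1 and 11.5 CPM, while Ccr7, the receptor that guides mature dendritic cells to lymph nodes, was at 0, 0 and 0.199 CPM. All 12 measured interferon genes were above their Matrigel-only level in Vehicle, 4 of them by at least 2-fold (median 0.88, beside 3.08% of all genes), with Isg15 at 28.9, 92.6 and 35.2 CPM and Oasl2 at 22.3, 56.2 and 16.7 CPM.

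**Figure D3:**
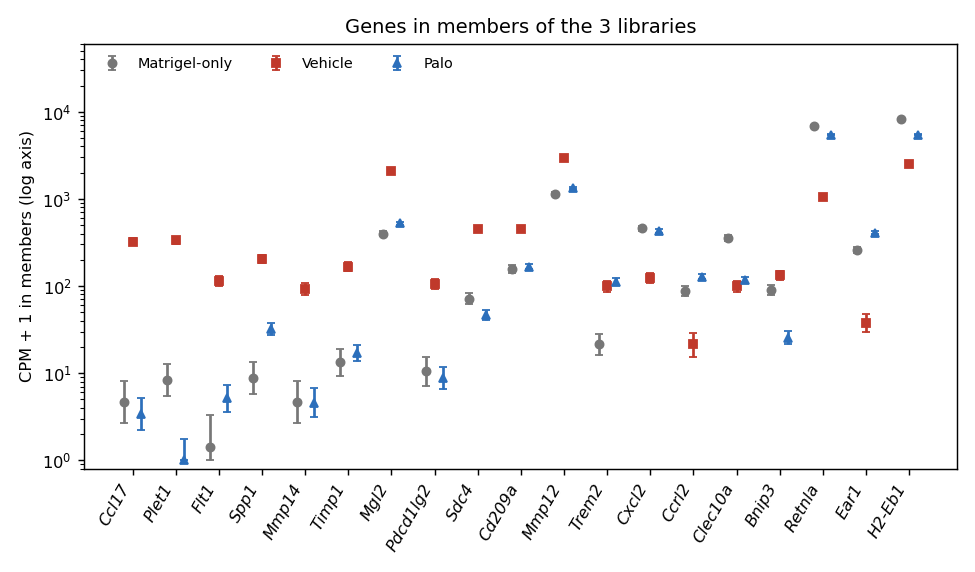
Levels of 19 genes in members of the 3 libraries, as CPM + 1 on a log axis, with 95% exact Poisson intervals for counting error. Vehicle was highest for the 11 genes from Ccl17 to Mmp12, and for Bnip3, while Retnla, Ear1 and H2-Eb1 were lowest in Vehicle.

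Some of the genes highest in Vehicle were found together in single cells. Of its 237 members, 39 held Ccl17 and 31 Plet1, and 16 held both, which are 41.0% of the cells with Ccl17 and 51.6% of those with Plet1. Ccl22 was found in 14 members, of which 12 had Ccl17. Mgl2 was found in 97.4% of cells with Ccl17, beside 82.3% of all Vehicle members. Flt1 was found in 23 of the 39 cells with Ccl17 (59.0%). These counts describe cells of 1 library and depend on depth.

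**Figure D4:**
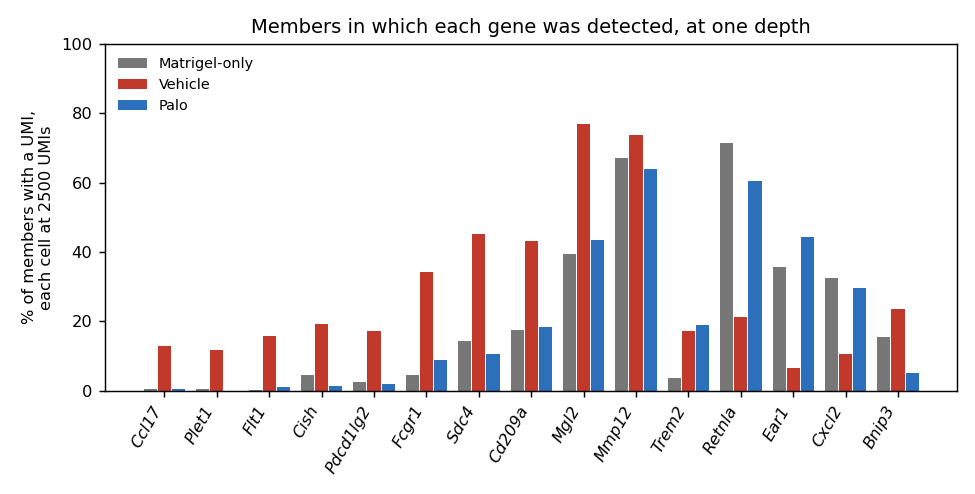
Members with at least 1 UMI of each of 15 genes, as a percent of the members with at least 2500 UMIs. Each of these cells was thinned to 2500 UMIs so that the libraries have one depth. Vehicle bars are taller for the genes from Ccl17 to Mmp12, for example 12.9% for Ccl17 and 77.1% for Mgl2, and shorter for Retnla, Ear1 and Cxcl2.

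Within each library the members with a Cd209a UMI differed from those without by a small set of genes. They numbered 110 of 510 in Matrigel-only, 135 of 237 in Vehicle and 209 of 751 in Palo, with median UMI counts of 4854 against 4398, 6696 against 6491 and 6803 against 6250. Over the 3 libraries 16 genes (0.448% of 3570) were at least 2-fold higher and 8 (0.224%) lower in cells with Cd209a. Neighbouring lectins of the same family led. Cd209d was at 438, 699 and 326 CPM with Cd209a and 22.4, 40.9 and 12.9 CPM without, and Cd209e at 38.7, 212 and 19.6 CPM against 2.13, 12.8 and 1.97 CPM. The transcripts of these genes share no 50-base stretch with Cd209a. Klrb1b was at 293, 457 and 246 CPM against 51.1, 133 and 53.2 CPM. Lower with Cd209a were Cd36, a receptor for fatty acids and oxidised lipoproteins, at 35.0, 58.1 and 22.3 CPM against 149, 256 and 185 CPM, and Clec12a, an inhibitory lectin, at 112, 50.3 and 85.3 CPM against 234, 202 and 233 CPM. Lipid handling genes had medians of -0.58, -0.63 and -0.92 between these cells, and MHC class II genes 0.25, 0.24 and 0.31.

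Cd209a was itself more frequent in Vehicle, and it belongs to the rule, so that members without it needed 3 of the other 5 genes of C. Among Vehicle members with Cd209a, Ccl17 was at 466 CPM, and among those without it at 133 CPM. In Matrigel-only the values of Ccl17 were 0 and 4.79 CPM.

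Fewer genes were lower in Vehicle members than in Matrigel-only members. H2-Eb1, the beta chain of the class II molecule I-E, was at 8251 CPM in Matrigel-only (8137 to 8366), 2482 CPM in Vehicle (2410 to 2556) and 5450 CPM in Palo (5386 to 5515), and the same gene was lowest in Vehicle in A-type cells (2238, 621 and 2537 CPM). As CD-1 is outbred, a difference between the mice and one between the treatments cannot be told apart here. The other class II genes did not follow. H2-Ab1 was at 11173, 11756 and 11441 CPM and Ciita, the class II transactivator, at 297, 327 and 296 CPM, and the list had a median of 0.07 with 1 of 10 genes higher and 1 lower. Between Palo and Vehicle its median was -0.10, and 0.074 with TMM scaling. Cxcl2, a chemokine for neutrophils, was at 458, 122 and 426 CPM, and Ccrl2, a receptor that presents chemerin, at 86.3, 20.4 and 127 CPM. Of the chemokine ligands as a whole, 9 of 15 were higher and 2 lower in Vehicle than in Matrigel-only (3.08% and 1.55% of all genes), the lower ones being Cxcl1 and Cxcl2. The median was 1.34, and 0.84 with cells thinned to 2000 UMIs before the rule. Cxcl16, a ligand for CXCR6, was at 47.9, 277 and 92.2 CPM, whereas Ccl6 (4043, 2303 and 3283 CPM) and Ccl9 (1866, 1528 and 1867 CPM), the abundant ligands of these cells, were not past 2-fold. For Fn1 the log2 ratio of Vehicle over Matrigel-only was -1.01 in members and 1.69 in A-type cells.

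Some genes were higher in Palo than in Vehicle members and near their Matrigel-only level. Apobec1, an RNA-editing cytidine deaminase, was at 203 CPM in Matrigel-only, 75.5 CPM in Vehicle and 254 CPM in Palo. Upb1, an enzyme of pyrimidine breakdown, was at 48.3, 12.1 and 61.6 CPM, and Hacd4, an enzyme of long-chain fatty acid synthesis, at 54.5, 16.5 and 75.9 CPM. C4b, a complement component, was at 52.4, 13.8 and 87.0 CPM, Ryr1, a calcium channel, at 54.9, 15.4 and 55.1 CPM, and Nr4a1, an immediate early transcription factor, at 147, 48.5 and 140 CPM. In each of these 6 genes Vehicle was the low library. A-type cells carried C4b at 674, 163 and 517 CPM, Hacd4 at 223, 121 and 180 CPM and Apobec1 at 195, 176 and 418 CPM. These 3 were lowest in Vehicle there too, and the part of A-type RNA in the member values was not tested. Upb1, Ryr1 and Nr4a1 were lower in A-type cells than in members in each library.

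Palo members were lower than Vehicle members for genes of the response to low oxygen, and here they were also below Matrigel-only. Of 17 measured hypoxia genes 9 were at least 2-fold lower in Palo than in Vehicle and 0 higher, where 3.54% and 1.18% of all genes at that floor were so. Their median was -1.04, and -0.61 with at least 4 C genes. Against Matrigel-only 5 of 16 were lower and 0 higher, with a median of -0.72 (0.776% and 0.262% of all genes), while Vehicle over Matrigel-only had 0 past 2-fold in either direction and a median of 0.31. Bnip3 (chr7:138890836-138909519, minus), a mitophagy receptor, was at 89.2 CPM in Matrigel-only (77.7 to 102), 131 CPM in Vehicle (115 to 149) and 24.4 CPM in Palo (20.3 to 29.2). It was found in 15.4%, 23.6% and 5.19% of thinned members. Egln3, an oxygen-sensing prolyl hydroxylase, was at 14.4, 16.0 and 1.99 CPM, Ak4, a mitochondrial adenylate kinase, at 19.0, 22 and 2.98 CPM, and Slc2a1, the glucose transporter GLUT1, at 79.3, 117 and 40.5 CPM. Each was lowest in Palo. Bnip3 followed the same order in A-type cells (125, 231 and 58.7 CPM) and in stromal cells (173, 384 and 94.0 CPM), so that the order was not limited to members. Of the 17 glycolysis genes 0 were higher and 5 lower by 2-fold in Palo than in Vehicle (median -0.66, beside 1.18% and 3.54% of all genes), and against Matrigel-only 1 was higher and 0 lower (median -0.14).

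Few other genes separated Palo from Matrigel-only members. Trem2, a lipid receptor of macrophages (chr17:48346401-48354147, plus), was at 20.6 CPM in Matrigel-only (15.3 to 27.2), 98.1 CPM in Vehicle (84.2 to 114) and 111 CPM in Palo (102 to 121), and so separated Matrigel-only from both implants with BMP2. Apoe, a lipid carrier, behaved alike at 505, 1003 and 1187 CPM, and so did the complement gene C1qa. A-type cells carried Trem2 at 143, 227 and 552 CPM, and the part of their RNA in these values was not tested. Ubb, a polyubiquitin gene, was at 184, 192 and 546 CPM in members and 201, 263 and 538 CPM in stromal cells, and Gm10320 at 18.6, 6.61 and 107 CPM in members and 29.6, 93.6 and 166 CPM in stromal cells. Whether reads of related genes were counted with them was not tested. A530064D06Rik was lower in Palo, at 109, 135 and 25.8 CPM, and H2-DMb2, a chain of the peptide-loading molecule of class II, at 249, 240 and 119 CPM.

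As palovarotene acts on a retinoic acid receptor and the implants carried BMP2, the genes of these pathways were examined in members. Rara and Rarg, which encode retinoic acid receptors, were at 50.8, 77.1 and 29.4 CPM and at 38.4, 36.9 and 44.1 CPM. Dhrs3, a retinaldehyde reductase that retinoic acid is known to raise in many cells, was at 140, 72.7 and 190 CPM. Aldh1a2, an enzyme that makes retinoic acid, was at 72.2, 22 and 51.1 CPM, and Cyp26a1, which degrades it, at 0 in all 3 libraries. Of the 8 retinoid genes measured in Palo and Vehicle, 2 were higher and 2 lower, with a median of 0.24 (1.18% and 3.54% of all genes), and between Palo and Matrigel-only 0 of 9 were past 2-fold (0.262% and 0.776% of all genes). Inhba, which encodes the activin A subunit, was at 0.413, 4.41 and 0.199 CPM in members, in contrast to 23.0, 660 and 64.4 CPM in stromal cells. Id2, a BMP target that dendritic cells also need, was at 1014, 537 and 892 CPM. Of the BMP response list 4 of 10 genes were measured, with medians of -0.03, 0.49 and 0.34 in the 3 comparisons. Genes raised by tissue dissociation had medians of -0.61, 0.58 and -0.10, with 1 of 12 lower and 0 higher by 2-fold in Vehicle than in Matrigel-only (1.55% and 3.08% of all genes), and their part in the values of genes such as Cxcl2 was not tested.

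**Figure D5:**
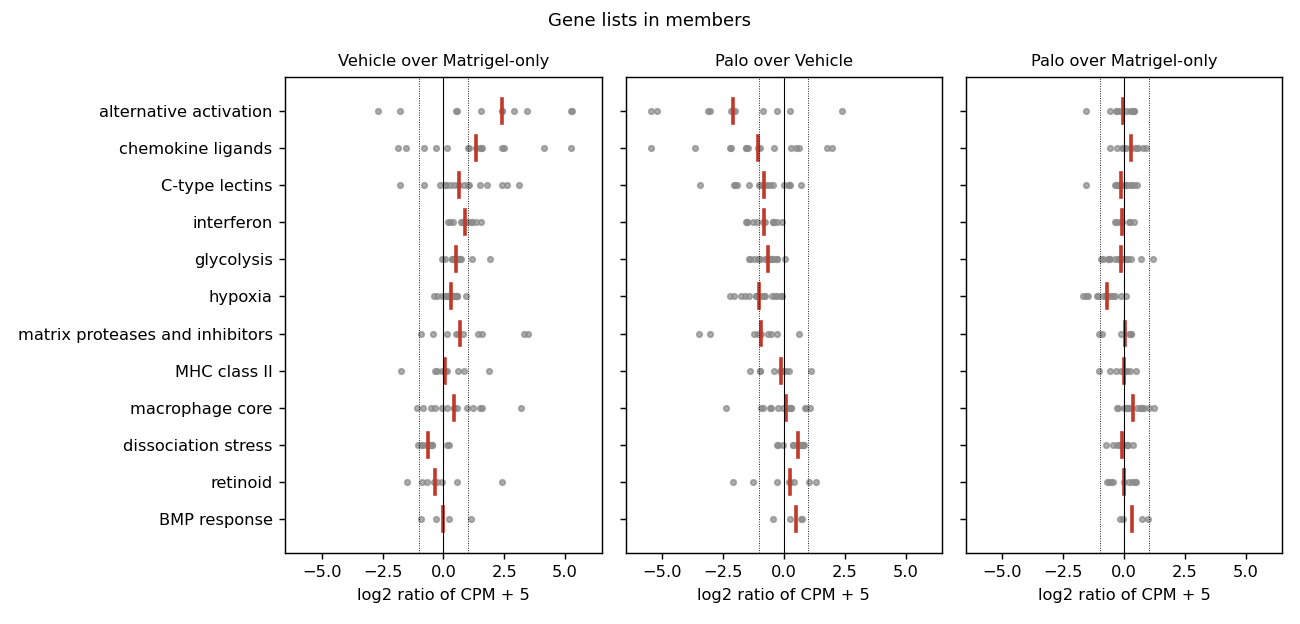
Log2 ratios of CPM + 5 in members (horizontal axes) for the genes of 12 lists, 1 panel for each pair of libraries. Grey points are genes with at least 5 CPM, red lines their medians and dotted lines 2-fold. Alternative activation is displaced most in the first 2 panels (medians 2.39 and -2.09), and hypoxia in the panel of Palo over Matrigel-only (-0.72).

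Some large ratios came from single cells. Fabp4, a fatty acid binding protein of adipocytes and macrophages, was at 340 CPM in Matrigel-only against 6.61 in Vehicle and 7.15 in Palo, but 96.4% of its UMIs lay in 1 cell, and without that cell the level was 12.5 CPM. Car3, an adipocyte carbonic anhydrase, was at 102, 2.20 and 0.199 CPM, and at 1.25 CPM in Matrigel-only without its richest cell, which held 98.8% of the UMIs. Adipocyte markers as a group summed to 374, 8.82 and 7.75 CPM. Hbb-bs, a haemoglobin chain of red cells, was at 23.9, 19.8 and 71.7 CPM, and the richest Palo cell held 93.1% of its UMIs, leaving 4.97 CPM. Markers of other cells were few in the rest. Neutrophil markers summed to 11.6, 33.6 and 9.14 CPM, with Cxcr2 the most abundant in Vehicle at 24.2 CPM. T and NK cell markers summed to 3.30, 40.2 and 2.78 CPM, of which Gzma made 14.3 CPM in Vehicle, and 2 Vehicle members had at least 3 of these markers. Cartilage markers summed to 7.43, 33.6 and 5.37 CPM, with Col2a1 at 11 CPM in Vehicle, and stromal markers to 519, 554 and 325 CPM. The 5 genes with the largest ratios of Vehicle over Matrigel-only among those at least 10 times higher in another cell class than in members are named apart. Cdh1, E-cadherin, was at 1.24, 107 and 1.99 CPM and Ccl4, a chemokine of macrophages and NK cells, at 40.9, 251 and 50.5 CPM. AW112010 was at 14.9, 111 and 29.2 CPM, Ly6a at 11.6, 56.2 and 4.97 CPM and Ccr1 at 29.3, 90.4 and 37.0 CPM. All were highest in Vehicle, and the part of neutrophils, basophils, T and NK cells or stromal cells in them was not tested.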

How the data were processed

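Droplet libraries (10x Genomics) of day 5 masses were made from 1 library per group, Matrigel-only, Vehicle and Palo. The authors deposited UMI counts per gene and barcode for 31053 genes, with 36 repeated symbols. The submitters' processing notes name Cell Ranger 3.0.2, Seurat 3 and the mouse build mm10. The deposited counts were not normalized. Cells of 200 to 6000 genes and at most 5% mitochondrial UMIs were kept. These were 8728, 5478 and 7297 cells. Member UMIs totalled 2422131, 1815055 and 5031589.

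UMIs were summed over members and divided by their total (CPM). Ratios were log2 of CPM + 5. Genes with at least 50 CPM in either library entered counts of genes past 2-fold, and list genes entered from 5 CPM. No test was possible with 1 library per group. Intervals are exact binomial, Newcombe or exact Poisson at 95% and cover counting error only, since nothing measured the spread between masses. A level of 0 was given the limit of 3 UMIs.

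For each pair of libraries the 12 largest and 12 smallest ratios were named, leaving out genes of the rule, mitochondrial genes and genes at least 10 times higher in stromal cells, neutrophils, basophils or T/NK cells, of which 5 were named apart. The same rule named 12 genes each way against A-type and B-type cells and 8 each way for Cd209a, and any list gene could serve as an example. A few genes that these rules name are not reported here. The members and the 36 lists (399 of 401 genes in the files) were chosen with earlier results of these data known.

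Doublets were called with scanpy's Scrublet, and since its own threshold marked 0, 1 and 1 barcodes, the highest scores were called at 0.8% per 1000 barcodes. Called doublets were kept and left out as an alternative. Positions are from GENCODE (mm10) and promoter sequences from RefSeq (GRCm38.p6). The alternatives were other limits of the rule, thinning, TMM scaling (edgeR 4.0.16 in R 4.3.3, used for scaling factors only), the pseudocount, the floor, doublets and a mean over cells. The calculations were tested on simulated data. Python 3.11.15, numpy 2.4.6, scipy 1.17.1, pandas 2.3.3 and scanpy 1.11.5 were used.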

Additional observations from a re-analysis of the deposited data

Results flagged for a closer look

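In 14 cases a gene differed at least 2-fold between 2 libraries in members and at least 2-fold the other way in A-type or B-type cells of the same libraries. None of these differences could be tested, with 1 library per group, and Vehicle held 40 B-type cells. Values are log2 ratios of CPM + 5. Between Vehicle and Matrigel-only, Fn1 had -1.01 in members and 1.69 in A-type cells, which started from 423 CPM against 5962 CPM in members. Against B-type cells, Ccl24 had 1.56 in members and -1.47, Rnase2a, a ribonuclease of the same family as Ear1 and Ear2, 1.92 and -3.45, Ccl2, a ligand of CCR2, 1.57 and -1.53, Hfe, a regulator of iron uptake, 1.26 and -1.48, and Galnt6, an enzyme of protein glycosylation, 1.74 and -1.44. Between Palo and Vehicle, Ccl4 had -2.21 in members, 1.54 in A-type cells and 1.48 in B-type cells, and Hbb-bs 1.63 in members and -1.13 in A-type cells. Ccl4, as given above, and Il1b, interleukin 1 beta, were at least 10 times higher in another cell class of Vehicle than in members. In B-type cells Il1b had 1.79 against -1.11 in members, Rnase2a 1.78 against -2.08, and Alox15 2.15 against -3.01. Alox15 reached 811 CPM in the B-type cells of Palo and 7.15 CPM in its members. Between Palo and Matrigel-only, Fabp4 had -4.83 in members and 2.34 in B-type cells, and Hbb-bs 1.41 and -5.81. As given above, 1 cell held most of the Fabp4 and Hbb-bs UMIs of members in the library where they were highest.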

How the results depend on the processing

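No paired analysis was possible because each group had 1 library, and no library could be left out. Of 30 share differences under the alternatives, 21 moved by less than their counting error, 8 moved by more and 1 reversed. The difference Palo minus Vehicle was 2.59 points with cells thinned to 2000 UMIs, 1.43 at 1100 UMIs, 3.56 with at least 4 C genes and 3.25 without Ear1 and Ear2. Palo minus Matrigel-only was 1.32, 0.852 and 2.56 points in the first 3 of these. Vehicle minus Matrigel-only was -0.576 at 1100 UMIs and 1.14 without Ear1 and Ear2. Every value without Ear1 and Ear2 required at least 2 of the other 4 genes of C, so the list and the limit changed together. The thinning to 1100 UMIs and the list without Ear1 and Ear2 were chosen after seeing the data, as were the alternatives for members against A-type and B-type cells and for Cd209a. With a floor of 10 CPM, which tests more genes, the higher and lower counts were 252 and 121 for Vehicle over Matrigel-only, 97 and 289 for Palo over Vehicle, 23 and 53 for Palo over Matrigel-only, and 27 and 13 for Cd209a. TMM scaling gave 78 and 91 for Palo over Vehicle and 17 and 6 for Palo over Matrigel-only. With at least 4 C genes 19 genes were lower in Palo than in Matrigel-only, and with at least 4 list genes per class 138 were higher and 236 lower than in B-type cells. The alternative activation median for Vehicle over Matrigel-only was 1.87 as a mean over cells, 2.15 with at least 4 C genes, 1.68 thinned to 2000 UMIs, 1.98 with no filter and 2.13 without Ear1 and Ear2. For Palo over Vehicle it was -1.81 as a mean over cells and -1.82 thinned. Chemokine ligands had 0.84 (Vehicle over Matrigel-only) and -0.18 (Palo over Vehicle) when thinned, and -1.56 for the latter with a pseudocount of 1 CPM. The hypoxia median of Palo over Vehicle was -0.61 with at least 4 C genes. MHC class II had 0.074 (Palo over Vehicle) and 0.13 (Palo over Matrigel-only) with TMM scaling, -0.14 for the latter with at least 4 C genes, and 0.0065 (Vehicle over Matrigel-only) and -0.17 (Palo over Matrigel-only) when thinned. Of the named genes, Hbb-bs reversed to -1.22 (at least 4 C genes) and -1.09 (thinned) for Palo over Vehicle. It also reversed to -2.12 (thinned) for Palo over Matrigel-only. Car3 reversed to 0.48 (thinned) and 0.20 (stromal limit of 0.5%) for Vehicle over Matrigel-only. As given above, 1 cell held most UMIs of each gene in the library where it was highest. Whether these cells left under the alternatives was not tested, nor were the causes of the other moves. Of 76 named ratios past 2-fold, between 0 and 7 fell under it by alternative, and thinning to 2000 UMIs made the 7.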

Other observations

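The other lists of the members, read beside medians over all genes of 0.02 for Vehicle over Matrigel-only, -0.13 for Palo over Vehicle and -0.10 for Palo over Matrigel-only, had these values in the same order. Of all genes 3.08% were at least 2-fold higher and 1.55% lower in Vehicle than in Matrigel-only. Complement genes had medians of 0.77, -0.18 and 0.67, with 3 of 10 at least 2-fold higher and 1 lower in Vehicle than in Matrigel-only. C-type lectins had 0.66, -0.83 and -0.12, with 6 of 17, the rule gene Cd209a among them, higher and 1 lower in Vehicle than in Matrigel-only. Clec4n, which encodes the fungal pattern receptor Dectin-2, was at 68.1, 438 and 101 CPM and led them beside Mgl2 and the Cd209 genes. Genes of dendritic identity had 0.58, -0.53 and 0.06. Irf4, a transcription factor of dendritic cells and of alternative activation, was at 65.2, 99.7 and 48.7 CPM. Genes of cell fusion had 0.44, -0.35 and 0.47, integrins 0.35, -0.23 and 0.17, chemokine receptors 0.27, -0.22 and 0.22, and the GM-CSF and M-CSF axis 0.50, -0.22 and 0.13. Within the receptors Cx3cr1, the fractalkine receptor, was at 9.50, 45.7 and 14.9 CPM. Inflammatory genes had -0.18, 0.60 and 0.27, with Il1b, in Vehicle at least 10 times higher in another cell class than in members, at 119, 283 and 129 CPM and Tnf at 69.4, 70.5 and 84.5 CPM. Monocyte genes had -0.17, 0.07 and -0.07, resident macrophage genes -0.08, 0.22 and -0.20, activin and TGF-beta genes 0.19, -0.23 and 0.12, and cell cycle genes, which the rule holds down, -0.21, -0.14 and -0.38.

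Ctsd, the lysosomal protease cathepsin D, was at 1085 CPM in Matrigel-only members, 476 CPM in those of Vehicle and 1077 CPM in those of Palo, whereas Ctsb, cathepsin B, was at 1187, 1460 and 1733 CPM.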
